A study of Mus musculus with 4 samples.

Results

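The genes followed here handle iron or belong to the antioxidant response, and they were measured by RNA-seq in 4T1 cells, a line derived from a mouse mammary carcinoma. They were 10 in number: Ftl1, Fth1, Tfrc, Slc40a1, Hmox1, Nqo1, Gclc, Gclm, Gpx4 and Srxn1. Each library lists 24411 genes. Ftl1 was chosen by its measured level, as the highest transcript of the library labelled CD95ko 2, and the other 9 were chosen by function. Its level there is therefore a description and supports nothing. The series holds 4 libraries, 2 labelled control and 2 labelled CD95ko, and values are in TPM (a level per transcript length, scaled to the same sum in each library). CD95 is the death receptor for Fas ligand, encoded by Fas.

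Per the labels, all 4 libraries come from 4T1 cells in the same serum-containing medium, with no ligand or drug named. The protocols name 4 RNA sources: control cells, the lentiviral Cas9 line selected with blasticidin, and a pair of single-cell clones from that line in which guide RNAs removed exon 9 of the CD95 gene. Which control library is the Cas9 line is not said in the titles. Each CD95ko library is thus 1 clone, and the controls may differ by Cas9 and selection, and nothing says that the libraries are separate cultures of one group, so p-values measure only the spread between these libraries. Fas itself was at 49.4 and 39.2 TPM in the controls, 15.8 TPM in the library labelled CD95ko 1 and 49.5 TPM in the library labelled CD95ko 2. A gene-level value does not separate exon 9 from the rest, so the libraries are named as labelled.

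Ferritin is a hollow shell of light chains (Ftl1) and heavy chains (Fth1) that stores iron, and the heavy chain oxidises iron as it enters. The transferrin receptor (Tfrc) brings iron in, and ferroportin (Slc40a1) exports it. Iron regulatory proteins bind a short RNA hairpin, the iron-responsive element, when iron is low: in the 5′ UTR of ferritin it blocks translation, and in the 3′ UTR of Tfrc it protects the transcript from decay. NRF2 is a transcription factor, held down by KEAP1, that drives antioxidant enzymes, among them Hmox1, Nqo1, Gclc, Gclm, Srxn1 and both ferritin chains.

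The 4 libraries differed in composition. The median TPM of the 11167 genes tested (those that reached 1 TPM in 2 or more libraries) was 16.3 in control 2 and between 21.3 and 22.9 in the other libraries, and 40.2% of control 2's TPM came from its top 100 genes, against 34.1% to 36.2%. TPM carries no read number, so depth is unknown and no counting interval could be given. All 6 epithelial markers examined (such as Epcam and Krt18) were above 0 in every library. They were higher in each library labelled CD95ko than in each control, as 29.2% of all tested genes were. For Cldn4 the margin was small, with 1369.92 TPM in control 1 and 1377.03 TPM in the library labelled CD95ko 2. The 6 summed to 4140 and 3853 TPM in the controls, 6418 TPM in the library labelled CD95ko 1 and 9937 TPM in the library labelled CD95ko 2. All 7 erythroid and all 4 hepatocyte markers were listed at 0 in every library. Of 6 leukocyte and macrophage markers, Ptprc, Adgre1 and Lyz2 were listed at 0 throughout, while the list summed to 57.8 and 46.2 TPM in the controls, 53.0 TPM in the library labelled CD95ko 1 and 253 TPM in the library labelled CD95ko 2, there mostly Cd68 and Cd14. Cd68, Cd14 and Csf1r were each above both controls in the library labelled CD95ko 2, while in the library labelled CD95ko 1 Cd68 was below both. Cd68 was at 44.57 and 42.05 TPM in the controls, 17.83 TPM in the library labelled CD95ko 1 and 146.27 TPM in the library labelled CD95ko 2. Cd14 was at 12.04 and 4.13 TPM in the controls, 12.95 TPM and 102.03 TPM in the same order. Csf1r was at 1.22 and 0 TPM in the controls and highest in the library labelled CD95ko 1, at 22.22 TPM against 5.07 TPM in the library labelled CD95ko 2. Of 4 endothelial markers 3 were listed at 0 throughout, and Tek was at 0.28 TPM in control 2 alone. Of 5 fibroblast markers 2 were listed at 0 throughout, and the list summed to between 0.97 and 4.52 TPM.

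The iron-responsive element was looked for in the transcripts of the 10 genes, and a link to their levels was not tested. A search of GENCODE M21 transcripts (GRCm38, the assembly also called mm10) for the motif CNNNNNCAGTGN, on the transcript strand and with all 5 bases before the loop able to pair with the 5 after it, matched 4 of the 10 genes. Of 21877 protein-coding genes, 160 (0.731%) had such a match in a UTR. The hairpin of ferritin and Tfrc was known before the search, so 4 of 10 beside that share is no enrichment result. The loop is in capitals, and each line gives 28 bases from 5′ to 3′.

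Ftl1, 5′ UTR, exon 1 of 4, chr7:45459779-45459806, reverse strand: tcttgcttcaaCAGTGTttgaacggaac
Fth1, 5′ UTR, exon 1 of 4, chr19:9982733-9982760, forward strand: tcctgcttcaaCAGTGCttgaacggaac
Slc40a1, 5′ UTR, exon 1 of 8, chr1:45925465-45925492, reverse strand: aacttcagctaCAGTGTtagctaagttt
Tfrc, 3′ UTR, exon 19 of 19, chr16:32631220-32631247, forward strand: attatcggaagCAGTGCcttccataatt
Tfrc, 3′ UTR, exon 19 of 19, chr16:32631599-32631626, forward strand: attatcgggagCAGTGTcttccataatg
Tfrc, 3′ UTR, exon 19 of 19, chr16:32631664-32631691, forward strand: tatatcggagaCAGTGAtctccatatgt
Tfrc, 3′ UTR, exon 19 of 19, chr16:32631711-32631738, forward strand: attatcgggaaCAGTGTttcccataatt

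The match lay 147 bases before the start codon in Ftl1, 109 bases before it in Fth1 and 201 bases before it in Slc40a1. In Tfrc the 4 matches lay between 883 and 1374 bases after the stop codon. A match is a description of the letters, and binding was not measured.

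Ferritin transcripts were among the most abundant in every library. Both were highest in the library labelled CD95ko 2, which for Ftl1 draws on the level by which it was chosen and supports nothing. Ftl1 (ENSMUSG00000050708.16, chr7:45457944-45459884, reverse strand) was at 5917 TPM in control 1, 9845 TPM in control 2, 5046 TPM in the library labelled CD95ko 1 and 12512 TPM in the library labelled CD95ko 2. The controls lay between the 2 libraries labelled CD95ko, so the groups overlapped. By rank among all listed genes Ftl1 was number 8 for control 1, number 3 for control 2, number 13 for the library labelled CD95ko 1 and number 1 for the library labelled CD95ko 2. The last of these places was fixed by the choice of Ftl1. In that library Eef1a1, an elongation factor and the next gene below it, was at 12383 TPM. Of the 25-base stretches in Ftl1 transcripts, 59.99% also occur in another gene, the largest part (57.1%) in Ftl1-ps1, which the libraries do not list. That is a share of sequence and not of reads, so the level of Ftl1 is uncertain by an amount that was not measured.

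Fth1 (ENSMUSG00000024661.7, chr19:9980598-9985098, forward strand) followed the same order except at its low end. It was at 2933 TPM in control 1, 4379 TPM in control 2, 3142 TPM in the library labelled CD95ko 1 and 6694 TPM in the library labelled CD95ko 2. The library labelled CD95ko 2 was above both controls and the library labelled CD95ko 1 lay between them. Between the groups, at 3656 ± 1023 TPM in the controls against 4918 ± 2511 TPM in those labelled CD95ko (SD, n = 2), the difference was smaller than the spread (log2 fold change 0.36 ± 0.40 SE, limma adjusted p = 0.71). Of its 3554 25-base stretches, pooled over all annotated transcripts, 4.47% occur in another gene. The coding transcript searched above has 929 bases, and the share within it was not computed.

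The proportion of the chains varied less than their levels. Ftl1 was 2.02 times Fth1 in control 1, 2.25 times in control 2, 1.61 times in the library labelled CD95ko 1 and 1.87 times in the library labelled CD95ko 2, on the per-length TPM scale. Together the chains held 0.885% and 1.42% of all TPM in the controls, 0.819% in the library labelled CD95ko 1 and 1.92% in the library labelled CD95ko 2. The last share draws on the level by which Ftl1 was chosen and supports nothing. Control 2, which had the lower median TPM, was 1.66 times control 1 for Ftl1 and 1.49 times for Fth1. The part of library composition in these levels was not tested, and neither was that of the epithelial markers, whose sum was also highest in the library labelled CD95ko 2. In bulk RNA, fewer cells with a transcript and less of it per cell cannot be told apart. The leukocyte and macrophage sum was also highest in the library labelled CD95ko 2, with Ptprc, Adgre1 and Lyz2 at 0 there.

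**Figure D1:**
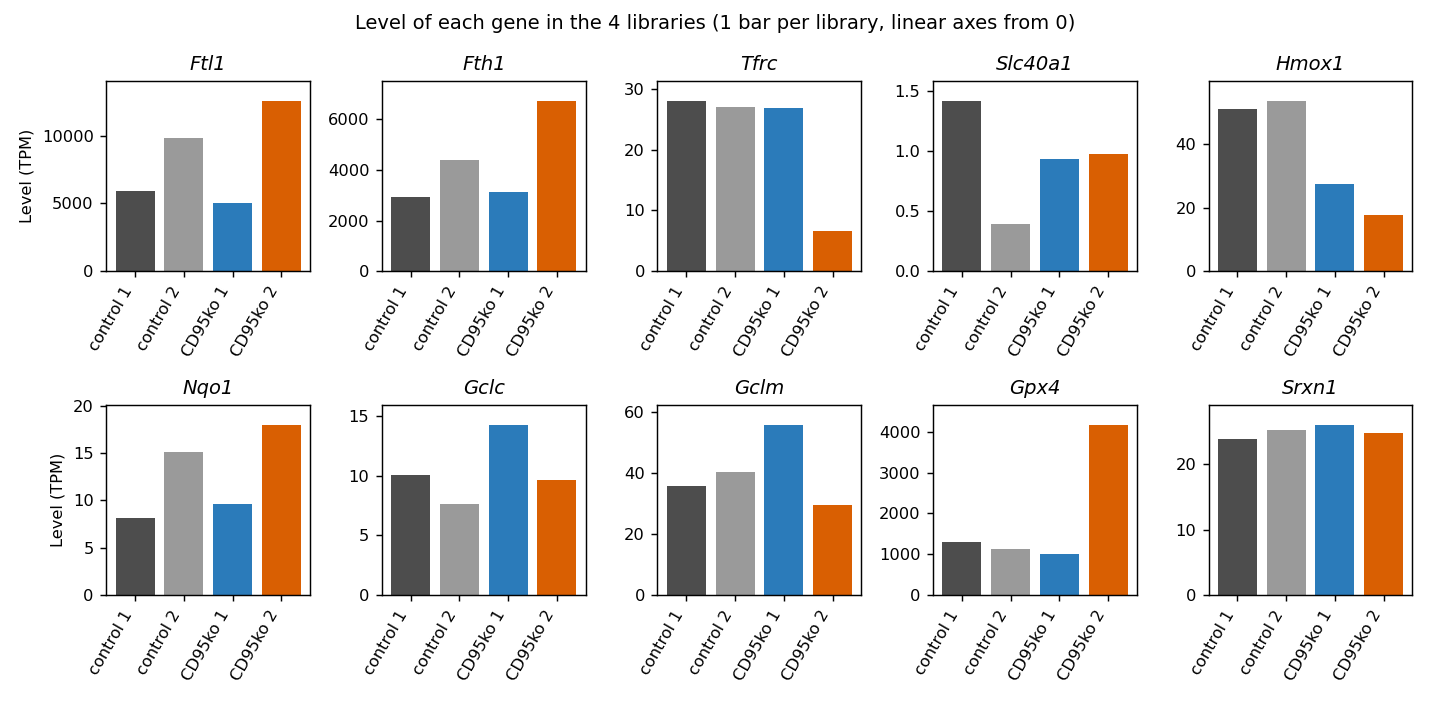
Level of each of the 10 genes in TPM, 1 bar per library, on linear axes that start at 0 and differ between panels. Ftl1, Fth1, Nqo1 and Gpx4 have their tallest bar and Tfrc, Hmox1 and Gclm their shortest in the library labelled CD95ko 2.

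Tfrc differed in 1 library. Its level was 27.93 TPM in control 1, 26.97 TPM in control 2, 26.85 TPM in the library labelled CD95ko 1 and 6.6 TPM in the library labelled CD95ko 2. The first 3 values were nearly equal, and the last was 4.16 times below the control mean. The groups did not overlap, but only because the library labelled CD95ko 1 was marginally below control 2. Tfrc (ENSMUSG00000022797.16, chr16:32608920-32632794, forward strand) was at 27.5 ± 0.679 TPM in the controls against 16.7 ± 14.3 TPM in those labelled CD95ko (SD, n = 2; log2 fold change -0.97 ± 0.62 SE, limma adjusted p = 0.497). Without the library labelled CD95ko 2 the difference was -0.03.

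Slc40a1, the iron exporter (ENSMUSG00000025993.10, chr1:45908068-45926523, reverse strand), was near the lower limit for testing. It was listed at 1.41 TPM in control 1, 0.39 TPM in control 2, 0.93 TPM in the library labelled CD95ko 1 and 0.97 TPM in the library labelled CD95ko 2. Both libraries labelled CD95ko lay between the controls. It did not reach 1 TPM in 2 libraries and was the single gene of the 10 left untested.

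The ratio of storage to uptake transcripts was highest in the library labelled CD95ko 2. Fth1 was 105 and 162 times Tfrc in the controls, 117 times in the library labelled CD95ko 1 and 1014 times in the library labelled CD95ko 2. Ftl1 was 212 and 365 times Tfrc in the controls, 188 times in the library labelled CD95ko 1 and 1896 times in the library labelled CD95ko 2, a value that draws on the level by which Ftl1 was chosen and supports nothing. A ratio within a library does not change with its scaling, and by itself it shows unequal change, not which gene changed. By level, in the library labelled CD95ko 2 Fth1 was 1.83 times the control mean and Tfrc was 4.16 times below it. The larger factor in the Fth1 ratio was thus that of Tfrc.

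**Figure D2:**
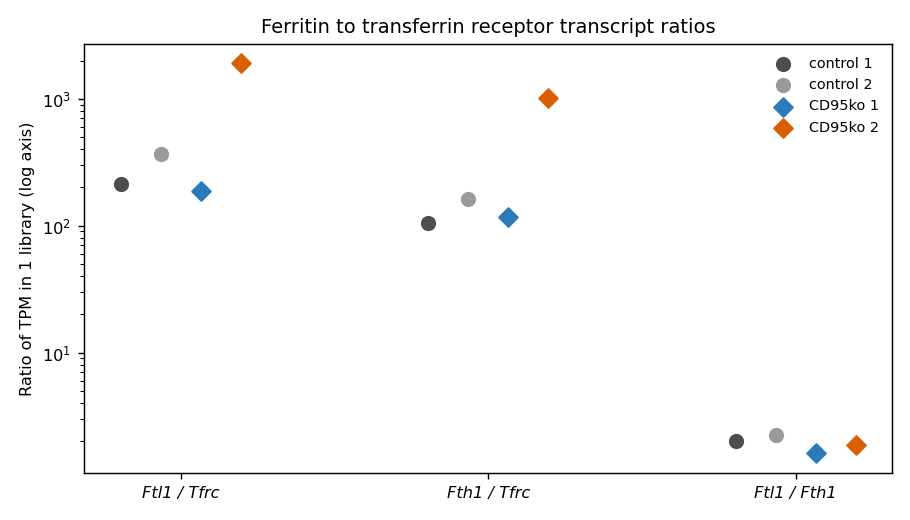
Ratios of TPM within each library on a log axis, 1 point per library. Fth1 to Tfrc stands at 1014 in the library labelled CD95ko 2 and between 105 and 162 in the other libraries. Ftl1 to Tfrc, at 1896 there, draws on the level by which Ftl1 was chosen, and Ftl1 to Fth1 lies between 1.61 and 2.25.

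Hmox1 was the member that was lower in both libraries labelled CD95ko by a clear margin. Hmox1, the enzyme that opens the heme ring and releases its iron (ENSMUSG00000005413.8, chr8:75093621-75100589, forward strand), was at 51.0 TPM in control 1, 53.4 TPM in control 2, 27.4 TPM in the library labelled CD95ko 1 and 17.65 TPM in the library labelled CD95ko 2. Both CD95ko values were well below both control values. The means were 52.2 ± 1.63 and 22.5 ± 6.92 TPM (SD, n = 2), a 2.32-fold lower level. Its log2 fold change was -1.21 ± 0.40 SE, with an unadjusted limma p of 0.0155, and it did not pass over all genes (limma adjusted p = 0.234). Relative to the median of all tested genes, which was 0.13, the difference was -1.34. None of its 25-base stretches occurs in another gene.

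The other NRF2-driven enzymes among the members, Nqo1, Gclc, Gclm and Srxn1, had log2 fold changes of 0.04 to 0.38, each smaller than its standard error. Nqo1, a quinone reductase (ENSMUSG00000003849.8, chr8:107388225-107403206, reverse strand), was at 8.11 TPM in control 1, 15.1 TPM in control 2, 9.66 TPM in the library labelled CD95ko 1 and 17.95 TPM in the library labelled CD95ko 2. The controls were 1.86-fold apart and the libraries labelled CD95ko were also 1.86-fold apart. The spread within a group thus exceeded the difference between the groups (log2 fold change 0.23 ± 0.55 SE, limma adjusted p = 0.881). Under quantile normalization the log2 fold change was 0.0001.

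Glutamate-cysteine ligase, which makes the first bond of glutathione, has a catalytic subunit (Gclc) and a modifier subunit (Gclm), and both were highest in the library labelled CD95ko 1. Gclc (ENSMUSG00000032350.9, chr9:77754535-77794485, forward strand) was at 10.1 TPM in control 1, 7.61 TPM in control 2, 14.2 TPM in the library labelled CD95ko 1 and 9.6 TPM in the library labelled CD95ko 2. Gclm (ENSMUSG00000028124.15, chr3:122245557-122270732, forward strand) was at 35.5 TPM in control 1, 40.2 TPM in control 2, 55.6 TPM in the library labelled CD95ko 1 and 29.5 TPM in the library labelled CD95ko 2. The groups overlapped for both subunits. Their log2 fold changes were 0.38 ± 0.52 SE for Gclc (limma adjusted p = 0.773) and 0.10 ± 0.42 SE for Gclm (limma adjusted p = 0.939), the latter turning to -0.02 under quantile normalization. The modifier transcript exceeded the catalytic one in every library, by 3.07 to 5.29 times on the TPM scale.

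Srxn1, sulfiredoxin, which restores over-oxidised peroxiredoxins (ENSMUSG00000032802.8, chr2:152105516-152111376, forward strand), varied least of the 10 genes. Its level was 23.9 TPM in control 1, 25.3 TPM in control 2, 26 TPM in the library labelled CD95ko 1 and 24.8 TPM in the library labelled CD95ko 2. Its log2 fold change of 0.04 had a 95% interval of -0.87 to 0.96 (limma adjusted p = 0.974) and was -0.14 under quantile normalization, so neither direction can be given.

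Of the members, Gpx4 had the largest ratio between the clones. Gpx4, the selenoprotein that reduces lipid peroxides in membranes (ENSMUSG00000075706.10, chr10:80047166-80056439, forward strand), was at 1289.73 TPM in control 1, 1139 TPM in control 2, 1011 TPM in the library labelled CD95ko 1 and 4164 TPM in the library labelled CD95ko 2. The library labelled CD95ko 2 was 3.43 times the control mean, and the library labelled CD95ko 1 was below both controls. The groups overlapped (1214 ± 107 against 2588 ± 2230 TPM, SD, n = 2), with a log2 fold change of 0.76 ± 0.55 SE (limma adjusted p = 0.555). It turned to -0.26 without the library labelled CD95ko 2. Its place among all genes went from between 119 and 148 in 3 libraries to 29 in the library labelled CD95ko 2. Gpx1, the cytosolic family member, was at 529 and 612 TPM in the controls, 520.03 TPM in the library labelled CD95ko 1 and 417 TPM in the library labelled CD95ko 2. Of the 25-base stretches in Gpx4 transcripts, 40.7% occur in another gene, nearly all in Gpx4-ps2, which the libraries do not list. The level of Gpx4 is therefore uncertain by an amount that was not measured.

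**Figure D3:**
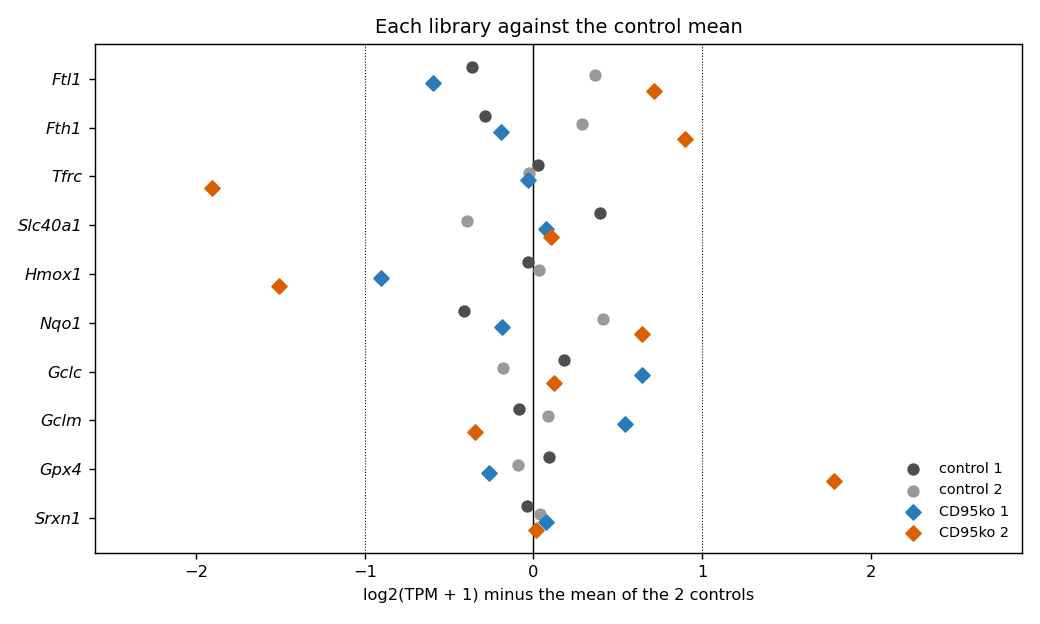
Difference of each library from the mean of the 2 controls, in log2(TPM + 1), 1 marker per library, with dotted lines at a 2-fold difference. The library labelled CD95ko 2 lies past the line for Tfrc and Hmox1 (lower) and Gpx4 (higher), and for no gene does the library labelled CD95ko 1.

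Across the 9 tested genes, none passed an adjusted p of 0.05 between the groups in limma, where 0.0537% of all tested genes passed. At an unadjusted p under 0.05 there was 1 of 9, Hmox1, on the lower side, where 5.68% of all tested genes stood, and none on the higher side, where 9.25% did. Groups did not overlap for 2 of 9, Tfrc and Hmox1, both lower, against 18.3% of tested genes on the lower side and 29.2% on the higher side, where there were none. No gene of the 9 was over 2-fold apart in the same direction in all 4 pairs, as 5.49% of tested genes were. For 2 libraries against 2, the smallest two-sided p of an exact permutation test is 0.333.

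The clones differed from each other more than the controls did. Between the controls none of the 9 genes was over 2-fold apart (14.4% of tested genes were), although under quantile normalization Nqo1 was. Between the libraries labelled CD95ko 4 of 9 were: Ftl1, Fth1 and Gpx4 were higher in the library labelled CD95ko 2, by 2.48, 2.13 and 4.12 times, and Tfrc was 4.07 times lower. Of all tested genes 9.9% were over 2-fold higher there and 13.4% were over 2-fold lower. Ftl1 was chosen by its level in that library, so it is no evidence in this count, and with 1 library on each side there is no test. The same 4 genes stood past 2-fold under quantile normalization and with a pseudocount of 0.1.

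Each clone was also set against both controls in limma, which assumes that the lone library varies as the controls do. That assumption was not met over all tested genes. Between the controls 14.4% were over 2-fold apart. Between the clones 9.9% were over 2-fold higher in the library labelled CD95ko 2 and 13.4% over 2-fold lower. An adjusted p under 0.05 here is thus set against control scatter and leaves out the spread between clones. For the library labelled CD95ko 2, Gpx4 was higher (log2 fold change 1.78), as was Fth1 (0.90). Tfrc was lower (-1.90), as was Hmox1 (-1.51). In that comparison 12.5% of all tested genes passed. For the library labelled CD95ko 1, none of the 9 genes passed, against 2.89% of tested genes. These comparisons share their controls and rest on 1 library each. For Fth1 the library labelled CD95ko 2 stood 0.61 above control 2 in log2(TPM + 1), and control 2 stood 0.58 above control 1.

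Patterns over the 4 libraries were compared by the root mean square difference of centred log2(TPM + 1) values, as a description. Among 1551 other tested genes with a mean TPM of at least 100, the nearest to Ftl1 were Phlda1 (0.144), Cox6b1, a subunit of cytochrome c oxidase (0.166), and 2200002D01Rik (0.174), with Fth1 at place 4 (0.177). Phlda1 was at 107 and 172 TPM in the controls, 71.8 TPM in the library labelled CD95ko 1 and 187 TPM in the library labelled CD95ko 2. Among the members, the nearest to Fth1 was Nqo1 (0.141), the nearest to Tfrc was Hmox1 (0.465), and Gclc and Gclm were nearest to each other (0.271).

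The wider pathways were read from 9 lists that together named 120 genes, 100 of them tested, 9 of these being members described above. None passed an adjusted p of 0.05 in limma (smallest 0.136), and 20 had an unadjusted p under 0.05, 15 higher and 5 lower in the libraries labelled CD95ko, where 9.25% of all tested genes were higher and 5.68% lower. The lower count is near that background, and each list's count below is to be read against the same shares. The differences given below therefore did not pass over all genes.

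Of the NRF2 target genes, 7 of 24 were higher and 1, Hmox1, was lower at an unadjusted p under 0.05, against 9.25% and 5.68% of all tested genes. The list's median log2 fold change was 0.42 against 0.13 over all tested genes. The 7 are enzymes of the pentose phosphate pathway (G6pdx, Pgd, Tkt), malic enzyme (Me1), glutathione reductase (Gsr) and glutathione transferases (Gsta4, Gstm1). With a library left out the count was 5 to 7, and G6pdx, Pgd and Gsta4 were in it each time; over all tested genes the share on the higher side was then 2.84% to 12.7%. G6pdx, which makes NADPH at the entry of the pentose phosphate pathway, was at 38.3 and 29.8 TPM in the controls, 98.85 TPM in the library labelled CD95ko 1 and 117.37 TPM in the library labelled CD95ko 2 (log2 fold change 1.64 ± 0.35 SE, limma adjusted p = 0.136). Gsr, which regenerates reduced glutathione, was at 57.3 and 88.0 TPM in the controls against 182 and 173 TPM in those labelled CD95ko, with a log2 fold change of 1.31 ± 0.34 SE (limma adjusted p = 0.159). Both genes were higher in each clone than in each control.

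The glutathione transferases Gsta4 and Gstm1 had larger differences and larger spread. Gsta4 was at 28.15 and 12.35 TPM in the controls against 67.04 and 151.86 TPM in the libraries labelled CD95ko, and Gstm1 at 6.96 and 2.18 TPM against 15.8 and 127 TPM. The remaining 3, named here after their values were seen, were Pgd, Tkt and Me1, with log2 fold changes of 1.17, 0.88 and 1.11. Over 2-fold in all 4 pairs were 4 of 24, G6pdx, Pgd, Gsta4 and Gstm1, against 3.53% of tested genes on the higher side.

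Among NRF2 and its regulators, none of 10 was higher at an unadjusted p under 0.05 and 1 was lower, near the 9.25% and 5.68% of all tested genes. NRF2 itself (Nfe2l2) was at 90.7 and 85.0 TPM in the controls against 83.1 and 76.0 TPM in those labelled CD95ko, a log2 fold change of -0.14 ± 0.32 SE (limma adjusted p = 0.872). Keap1, its inhibitor, was at 53.8 and 32.4 TPM in the controls against 64.7 and 76.5 TPM in those labelled CD95ko (limma adjusted p = 0.406). The lower one was Mafk, a small MAF partner of NRF2 (84.6 and 56.9 against 39.9 and 25.9 TPM, limma adjusted p = 0.267). The list's median log2 fold change was -0.26. Nfe2l2 and Keap1 were named after their values were seen.

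The counts in the iron and heme lists were near those over all tested genes (9.25% higher, 5.68% lower). Of 5 tested storage genes 1 was higher at an unadjusted p under 0.05: Pcbp2, an iron chaperone and RNA-binding protein, was at 211 and 144 TPM in the controls against 261 and 402 TPM in those labelled CD95ko. Of 11 tested genes for uptake, transport and export none reached it in either direction, and the list's median was -0.14. Fbxl5, which targets an iron regulatory protein for degradation when iron is plentiful, was the single one of 11 sensing and iron-sulfur genes, at 36.8 and 34.4 TPM against 61.5 and 105 TPM, a difference of 1.15 ± 0.39 SE in log2 (limma adjusted p = 0.237). In the heme list of 16, Urod, an enzyme of heme synthesis, was higher (15.2 and 14.3 against 28.7 and 75.0 TPM, limma adjusted p = 0.223) and Hmox1 lower. The medians of the storage, sensing and heme lists were 0.14, 0.08 and 0.19.

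Among 11 tested glutathione genes, Glrx and Gsr were higher and Chac1 was lower at an unadjusted p under 0.05, beside 9.25% and 5.68% of all tested genes. Glrx, a glutaredoxin, was at 21.3 and 20.1 TPM in the controls against 62.6 and 80.2 TPM in those labelled CD95ko, with a log2 fold change of 1.73 ± 0.38 SE (limma adjusted p = 0.136). Of 14 peroxiredoxin, thioredoxin, superoxide dismutase and catalase genes, Prdx2 and Cat were higher and Txnrd2, the mitochondrial thioredoxin reductase, was lower (75.8 and 52.6 against 22.3 and 34.1 TPM, limma adjusted p = 0.241). Cat, which breaks down hydrogen peroxide, was at 20.4 and 21.8 TPM against 44.5 and 45.9 TPM (limma adjusted p = 0.259), and the clones differed little from each other.

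Of 9 tested ferroptosis genes 2 were higher and 1 lower at an unadjusted p under 0.05, beside 9.25% and 5.68% of all tested genes. With so few genes a list, these counts are descriptions. Acsl4, which loads membranes with polyunsaturated fatty acids, was at 34.3 and 23.7 TPM in the controls against 68.4 and 83.9 TPM in those labelled CD95ko, with a log2 fold change of 1.38 ± 0.38 SE (limma adjusted p = 0.171). Aifm2, a ubiquinone reductase that acts beside Gpx4, was at 16.97 and 7.66 TPM against 26.9 and 59.3 TPM (limma adjusted p = 0.223). Sephs2, which makes the selenium donor for selenoproteins such as Gpx4, was lower at 58.2 and 61.4 TPM against 33.3 and 23.2 TPM (limma adjusted p = 0.251). Thus Gpx4 and Sephs2 differed in opposite directions in the library labelled CD95ko 2. The medians of the glutathione, peroxiredoxin and ferroptosis lists were 0.10, 0.08 and -0.07.

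**Figure D4:**
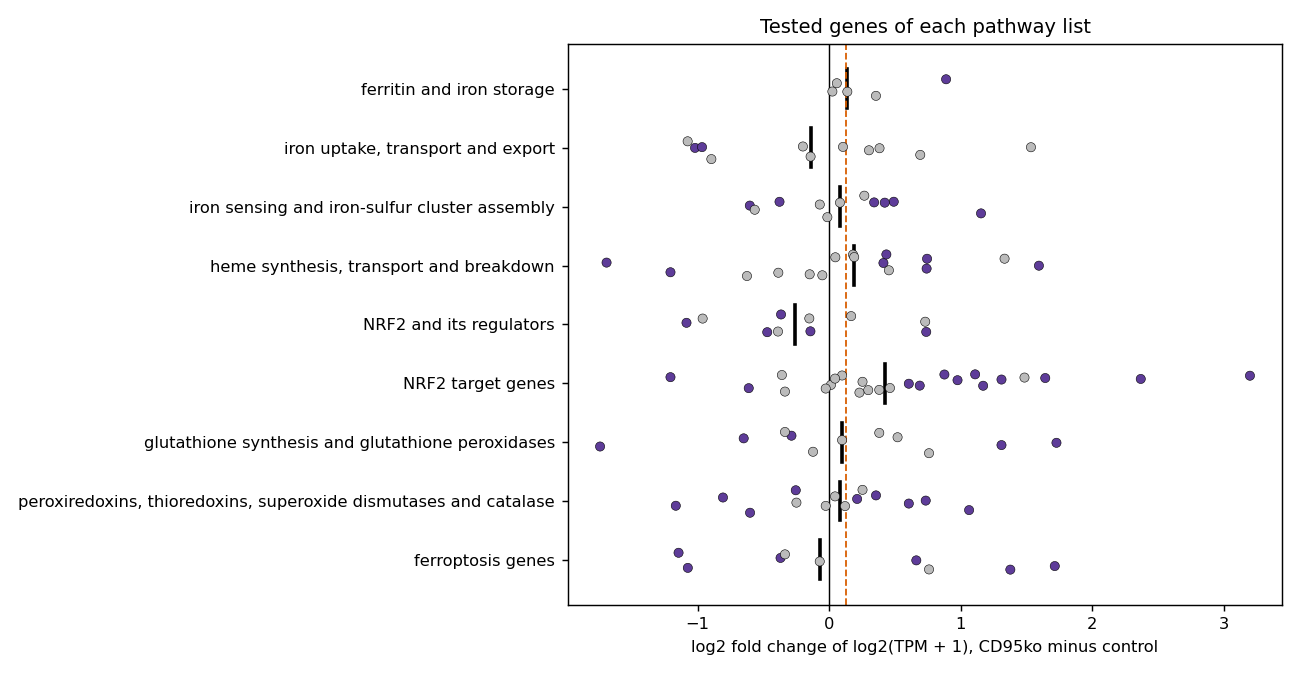
Log2 fold change of each tested gene in the 9 pathway lists, CD95ko minus control, with the list's median as a black bar and the median of all tested genes (0.13) as a dashed line. Purple points are genes whose groups did not overlap; the median of the NRF2 targets, 0.42, is the furthest to the right, and that of NRF2 and its regulators, -0.26, the furthest to the left.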

How the data were processed

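Poly(A)-selected RNA of 4 libraries was fragmented, tailed, reverse transcribed by template switching and amplified by PCR, per the labels' protocols. The deposited values are TPM, per the file headers, with 1 table a library. STAR 2.6.0, RSEM 1.3.0 and mm10 are named in the submitters' processing notes, and the annotation and strand setting are not given in the sources used here. Depth cannot be read from TPM, which also makes levels depend on what else a library holds.

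Values were transformed to log2(TPM + 1), genes were kept where 2 or more libraries reached 1 TPM, and groups from the sample titles were compared across all genes with limma 3.58.1 in R 4.3.3 (eBayes with trend, two-sided, Benjamini-Hochberg over all 11167 genes, threshold 0.05). Fold changes on this scale understate those of low genes. The procedure was also run on simulated data with known added differences, which checks its estimates only and does not bear on single clones. Leaving out libraries for the NRF2 target count was added after the data were seen; the closing section gives the other alternatives. The members, the lists and the tests were chosen with earlier results of these data known. Named beside the members are, for each list, up to 4 genes of smallest unadjusted p under 0.05 and up to 2 with the largest difference between the clones, unless said otherwise. Of 120 list genes 2 were found under an older symbol through RefSeq (GRCm38.p6). Positions, hairpins and shared 25-base stretches come from GENCODE M21, the stretches pooled over all annotated transcripts of a gene.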

Additional observations from a re-analysis of the deposited data

How the results depend on the processing

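The number of members past an adjusted p of 0.05 stayed 0 in every setting with all 4 libraries and ranged from 0 to 4 when a library was left out, 4 without the library labelled CD95ko 1. Over all genes the number went from 6 to 0 with a pseudocount of 0.1, 0 without a filter, 55 with a mean TPM of at least 5, 0 without the variance trend, 52 with robust eBayes and 0 under quantile normalization, at unadjusted counts of 1553, 1636, 1516, 1531, 1706 and 1862 against 1667; the cause was not tested. It ranged from 0 to 1356 with a library left out (313 without the library labelled CD95ko 2). A replicate block left 2 genes and 0 members past it; the numbers do not pair the libraries (correlation of deviations -0.0814 across genes) and the block changed no member's call. Members whose groups did not overlap numbered 3 to 7 with a library left out, and those over 2-fold in all pairs 0 to 3, fewer pairs being compared. Between the controls 1 member, Nqo1, passed 2-fold under quantile normalization.

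With all 4 libraries, 61 alternative values of the members' log2 fold changes had the main sign and call, and 2 turned: Gclm to -0.0157 and Srxn1 to -0.14, both under quantile normalization, which took the median of all genes from 0.13 to 0.002. With a library left out the range was -0.60 to 0.71 for Ftl1, -0.19 to 0.90 for Fth1, -0.185 to 0.645 for Nqo1, -0.35 to 0.54 for Gclm and -0.26 to 1.78 for Gpx4, each including 0, and -1.51 to -0.90 for Hmox1, -1.90 to -0.03 for Tfrc, 0.12 to 0.64 for Gclc (0.38 with all libraries) and 0.0057 to 0.0834 for Srxn1.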

Other observations

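Several genes of these pathways that are not members differed chiefly between the clones, and 1 library on each side allows no test. Lcn2, a secreted protein that binds iron-carrying siderophores, was at 383 and 497 TPM in the controls, 214 TPM in the library labelled CD95ko 1 and 2323 TPM in the library labelled CD95ko 2. Blvrb, a biliverdin and flavin reductase, was at 11.1 and 6.98 TPM in the controls, 9.57 TPM and 57.2 TPM in the same order. Ephx1, an epoxide hydrolase, was at 7.51 and 0.82 TPM in the controls, listed at 0 in the library labelled CD95ko 1 and at 120.45 TPM in the library labelled CD95ko 2.

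Steap1, Chac1, Slc7a11 and Sod2, like Tfrc, were lowest in the library labelled CD95ko 2. Steap1, of the family of metalloreductases, was at 178 and 115 TPM in the controls, 168 TPM in the library labelled CD95ko 1 and 26.6 TPM in the library labelled CD95ko 2. Chac1, which degrades glutathione and is induced by the integrated stress response, was at 227 and 213 TPM in the controls, 171 TPM and 24.4 TPM in the same order. Slc7a11, the cystine importer that feeds glutathione synthesis, was at 6.77 and 5.08 TPM in the controls, 8.62 TPM and 2.08 TPM. Maff, a small MAF protein, was instead lowest in the library labelled CD95ko 1. It was at 88.2 and 66.2 TPM in the controls, 20.8 TPM in the library labelled CD95ko 1 and 71.35 TPM in the library labelled CD95ko 2. Sod2, the mitochondrial superoxide dismutase, was at 40.55 and 45.15 TPM in the controls, 35.2 TPM and 16.3 TPM in the same order. Bach1, a repressor of NRF2 targets, was highest in the library labelled CD95ko 2. It was at 8.17 and 4.37 TPM in the controls, 8.17 TPM and 13.8 TPM. Abcb6 was at 6.13 and 8.07, 14.1 and 4.52 TPM, Isca1 at 34.8 and 25.4, 27.3 and 14.3 TPM, and Ciao1 at 12.8 and 11.5, 12.9 and 23.7 TPM.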
